A study of Zea mays with 318 samples.

Results

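Among 318 maize inbred lines whose kernels were profiled by RNA-seq at 5 days after pollination (DAP), 12 lines had a transcriptome far from that of the panel and 66 lines had one close to it. The members were found from expression itself. For each line, Pearson's r was taken between its FPKM (fragments per kilobase of gene and unit of sequencing depth, normalised between lines) and the mean FPKM of all 318 lines, over the 1000 genes with the highest mean. Lines with r below 0.6 are called atypical here and lines with r at or above 0.87 typical, which left 240 lines in between. All lines shared 1 treatment and 1 sampling time, 5 DAP. The paper cautions that kernels of different lines need not be at the same developmental point at 1 time. It used such a correlation over the top 1000 genes as its measure of how consistent the lines were in development. Whether the groups differed in developmental stage was not tested. Each was an inbred line of a tropical, subtropical or temperate association panel, self-pollinated in the field. No allele, agent or age separated the groups in the labels. The panel and field design are those of the paper, which describes fewer than 318 lines at this stage. Each line had 1 library, made from seeds of 3 field blocks that were mixed before RNA extraction, so an SD below is the spread across inbred lines and not across repeats of a line.

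A kernel at this stage holds a young endosperm and a very small embryo inside maternal tissue, the nucellus and the pericarp. The endosperm passes at this time from a multinucleate syncytium to separate cells, and starch and zein storage begin later. Genes of the maternal layers, of cell division and of hormone signalling therefore stand beside each other in 1 RNA sample.

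The 12 atypical lines were DAN599 (r = 0.416), a line with r = 0.493 that is called the 0.493 line below and carries its full label in the plots, GY462 (0.524), 1462 (0.525), GY386 (0.542), CML493 (0.542), CIMBL1 (0.562), DAN3130 (0.569), CML116 (0.571), CIMBL127 (0.575), 835B (0.583) and GEMS55 (0.598). The 66 typical lines had r between 0.871 and 0.921. No gap in r marked either threshold. The lines just below 0.6 were 835B at 0.583 and GEMS55 at 0.598, and those just above were BY4839 and CIMBL6, both at 0.604. The lines just below 0.87 were JI853 at 0.868 and 5213 at 0.869, and those just above were CIMBL82 at 0.871 and GEMS16 at 0.872.

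Names of the lines and depth were not part of the rule. Of the atypical lines, 7 of 12 had names without a CIMBL, CML or GEMS prefix, against 27 of 66 typical lines, an odds ratio of 2.02 (two-sided Fisher's exact test, p = 0.347). Depth was higher in the atypical lines: total counts lay between 11466015 and 25322060 with a median of 15591413 in atypical lines, against 6100624 to 23107365 with a median of 13390504 in typical lines. The medians differed by 2200909 counts (two-sided permutation test with 100000 resamples, p = 0.0141), and the ranges overlapped. Without the 0.493 line, 1462, GY386, CIMBL1, CML116 or GEMS55 in turn the difference was 1678334 counts with p between 0.0553 and 0.0566 by the same permutation test. The atypical lines had a median of 18776 genes above 1 FPKM (18518 to 21246), against 20830.5 (20137 to 21578) in typical lines. The 10 genes with the highest mean FPKM over all lines were summed in each line. They took 0.828% to 1.73% of a line's counts in atypical lines, against 1.34% to 3.98% in typical lines. Because r was taken over these genes among others, this difference is partly built in.

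Marker lists of tissues were looked at first. Of the 25 zein genes, which encode the storage proteins of the later endosperm, and of the 13 transfer cell genes, none had a median above 1 FPKM in either group. The summed zein level reached at most 0.389 FPKM in atypical lines, against 4.67 FPKM in typical lines. Leaf C4 genes summed to 33 to 209.1 FPKM in atypical lines, against 16 to 114.1 FPKM in typical lines, and none of the 5 compared was 2-fold apart. Pollen allergens and profilins summed to 274.3 to 703 FPKM in atypical lines, against 251.99 to 654.7 FPKM in typical lines. MADS-box factors, many of which are known from ovules and carpels, summed to 1611 to 3759.8 FPKM in atypical lines, against 2278 to 4635 FPKM in typical lines. The part of any other tissue in the differences was not tested.

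Between the groups, many genes were lower in the atypical lines and few were higher. Over the 21033 genes with a median above 1 FPKM in either group, 13.7% (2872 genes) were at least 2-fold lower and 0.566% at least 2-fold higher in atypical lines, taken as the difference of mean log2(FPKM + 1). This scale understates the difference of genes with low FPKM. The median difference over all compared genes was 0.01, so a gene in the middle of the distribution was level between the groups. Of all compared genes, 4.19% were at least 4-fold and 1.013% at least 8-fold lower, whereas 1 gene was at least 4-fold higher. All 12 atypical lines lay below the typical median in 1160 of the lower genes. Every atypical line lay below every typical line in 11 genes (0.0523%), and no gene (0%) had every atypical line above every typical line. Because the lines were chosen by their expression, these differences describe the groups and were given no test. Among the 1000 genes used by the rule, 280 were lower and 4 higher. In bulk kernels, fewer cells of a type and less RNA per cell cannot be told apart.

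GRMZM2G121308, to which RefSeq gives no gene name, had the highest mean FPKM of all genes. In each of the 12 atypical lines it was also furthest below the panel mean in FPKM, which the rule and the FPKM scale largely fix: a gene cannot fall short by more than its mean of 3909 FPKM. It had 0.903 FPKM in the lowest, 201.3 in the median and 1363 in the highest atypical line, against 2196, 5400.1 and 11162 FPKM in typical lines. The lowest were DAN3130 (0.903 FPKM), GY386 (2.04 FPKM) and CIMBL1 (2.46 FPKM), and the highest were CIMBL127 (1363 FPKM), CML116 (1036 FPKM) and CML493 (918 FPKM). The groups did not overlap, and the difference was -5.81 (SD 3.44 in atypical lines, 0.516 in typical lines). The gene is 1 of the 1000 of the rule. With the 10 highest genes left out of r, 7 of the 12 lines stayed among the 12 lowest. Low values were not confined to the atypical lines: 87 of the 240 intermediate lines also lay below every typical line. Other very abundant genes without a name followed. AC225718.2_FG006 had a median of 355 FPKM in atypical lines, against 2235 FPKM in typical lines, and GRMZM2G118873 had 262.8 FPKM, against 2452 FPKM. By contrast trh2, named for a thioredoxin h and also among the 10 highest genes, had medians of 1523 FPKM in atypical lines and 1594 FPKM in typical lines.

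The remaining genes whose groups did not overlap were GRMZM2G022931, GRMZM2G355572, GRMZM2G149024, GRMZM2G097704, GRMZM2G451975, GRMZM2G073272, GRMZM2G027825, GRMZM2G332259, GRMZM2G041809 and GRMZM2G335111, all lower in atypical lines and all without a RefSeq gene name. GRMZM2G022931 had a median of 5.48 FPKM (1.02 to 38) in atypical lines, against 175.7 FPKM (51 to 582) in typical lines. In GRMZM2G335111 the separation was narrow, with 3.67 FPKM in the highest atypical line, against 3.68 FPKM in the lowest typical line. The largest difference without a name was in GRMZM2G420883, at -5.92, with medians of 4.72 FPKM in atypical lines and 525 FPKM in typical lines. Of its atypical lines, 9 of 12 lay below every typical line and 1 lay above the typical median.

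**Figure D1:**
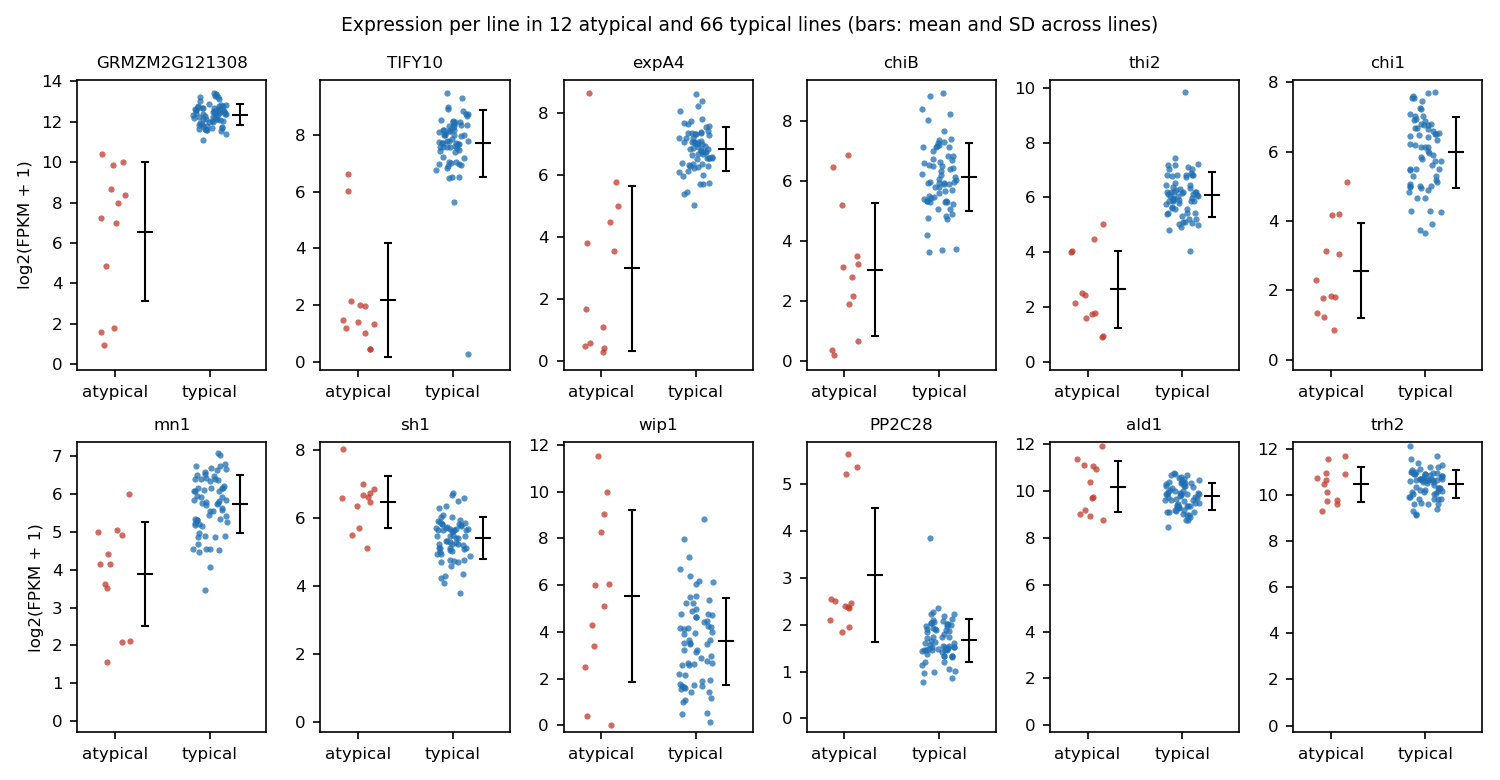
Each panel plots log2(FPKM + 1) of 1 gene, each point being 1 line, with the 12 atypical lines in red on the left and the 66 typical lines in blue on the right; bars are the mean and SD across lines. GRMZM2G121308 separated the groups fully. TIFY10 overlapped, with 1 typical line at 0.195 FPKM and the atypical line CML116 at 97.8 FPKM. The genes sh1 and PP2C28 were higher in atypical lines, and trh2 was level.

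Among named genes the largest difference was in TIFY10. TIFY proteins of the ZIM and JAZ type are repressors of jasmonate signalling in plants, and jasmonate in turn induces many of their genes. TIFY10 had 0.368, 1.68 and 97.8 FPKM in the lowest, median and highest atypical line, against 0.195, 218.8 and 708 FPKM in typical lines. Only CML116 (97.8 FPKM) and DAN599 (64.1 FPKM) were above 4 FPKM among atypical lines, and a single typical line was below 2 FPKM. These values rest on 4 to 1161 reads per atypical line. The difference was -5.53 (SD 2.02 in atypical and 1.18 in typical lines). Of 21 TIFY genes compared, 10 were at least 2-fold lower and none higher, beside 13.7% lower and 0.566% higher of all compared genes, with a median difference of -0.57 beside 0.01. Those shares over all compared genes stand beside each list below too, and since expression itself chose the groups, nothing is read from the comparison. TIFY1 (-3.39), TIFY9 (-3.15) and TIFY20 (-3.04) were among the lower ones. TIFY9 had a median of 14.6 FPKM in atypical lines, against 243.1 FPKM in typical lines. The TIFY list and the jasmonate, ethylene, cytokinin, abscisic acid, cell number, glycolysis, heat shock factor and proteinase inhibitor lists were added after values were seen.

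Of 15 enzymes that make jasmonate, 6 were at least 2-fold lower and none higher (median -0.60), beside 13.7% lower of all compared genes. Their mean level was not low in every atypical line: it stood at 1.001 in the 0.493 line and 0.32 in CML116, and 5 of 12 atypical lines lay below every typical line. The lowest was ts1, the tasselseed lipoxygenase known from sex determination in the tassel, with 18.2 FPKM (3.66 to 46.9) in atypical lines, against 113.4 FPKM (39.2 to 311.6) in typical lines. It was below the typical median in 12 of 12 atypical lines, and 10 of them lay below every typical line. The allene oxide cyclase genes aoc2 (-1.84) and aoc1 (-1.62) and the allene oxide synthase gene aos2 (-1.30) were also lower. For aoc2, 3 of 12 atypical lines lay above the typical median, so this difference was not shared by all of them.

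Ethylene genes showed the lowest list median. Of 7 compared, 4 were at least 2-fold lower and none higher (median -1.55), beside 13.7% lower of all compared genes. All 4 encode enzymes of ethylene synthesis. The ACC synthase gene acs7 had 5.48 FPKM (0.507 to 78.2) in atypical lines, against 50.2 FPKM (2.74 to 227.3) in typical lines. ACO31 (-2.15) and ACO20 (-1.77), named for the ACC oxidase that forms ethylene, and ACS6 (-1.55) were the others. Of 33 genes of abscisic acid synthesis and of its PYL receptors and PP2C phosphatases, 10 were lower and 1 higher (median -0.44), beside the same 13.7% lower and 0.566% higher. The epoxycarotenoid dioxygenase gene vp14, a step of abscisic acid synthesis, differed by -2.48, with 11 of 12 atypical lines below every typical line. PP2C28 went the other way, as described below. Of 16 cytokinin oxidase and response regulator genes, 6 were lower and none higher (median -0.51), led by CKX10 (-2.24) and CKX4b (-2.05), whose products degrade cytokinin.

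The next lists hold cell wall and water channel genes, beside 13.7% lower of all compared genes. Expansins loosen the walls of growing cells, and 6 of 9 were at least 2-fold lower with none higher (median -1.01). expA4 had 6.38 FPKM (0.214 to 397) in atypical lines, against 112.7 FPKM (31.5 to 385) in typical lines. Its highest value, in the 0.493 line, was above that of every typical line, while 10 of 12 atypical lines lay below all of them. EXPA5 differed by -2.92. Of 17 aquaporins, 8 were lower and none higher (median -0.99), led by TIP4-4 (-3.08) and NIP3-1 (-2.39). The place of 1 of the 17 is uncertain, since its identifier is named both sip1 and Zlp and also matched the chitinase list. None of the 10 cellulose synthases was 2-fold apart (median -0.09).

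Phenylpropanoid and defence-related lists were lower in part, beside 13.7% lower of all compared genes. Of 7 phenylpropanoid enzymes, 3 were lower (median -0.82), among them chi1, named for chalcone isomerase of flavonoid synthesis, at -3.41. It had 3.27 FPKM (0.813 to 34) in atypical lines, against 69.2 FPKM (11.6 to 211.03) in typical lines. The cinnamyl alcohol dehydrogenase gene bm1 of lignin synthesis differed by -2.60. Of 27 glutathione S-transferases, which conjugate glutathione to reactive compounds, 11 were lower and none higher (median -0.69). Of 6 chitinases and pathogenesis-related genes, 2 were lower, with chiB at -3.10, and the mean level of that list was above 0 in DAN599, the 0.493 line and CML116. Of 8 proteinase inhibitors and cystatins, 5 were lower and 1 higher (median -1.21), and the higher one, wip1, set some atypical lines apart from the others. Both peroxidases and 2 of 3 lipid transfer protein genes were lower, with LTP3 at -2.37, which was listed at 0 in DAN3130.

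Of transcription factors, beside 13.7% lower of all compared genes, some in each family were lower. Of 32 AP2/ERF factors 14 were lower and none higher (median -0.73), of 19 WRKY factors 6 were lower (median -0.52), and of 15 NAC factors 4 were lower (median -0.19). WRKY67 had 0.584 FPKM in the median atypical line, against 19.3 FPKM in typical lines. The MADS-box factors were level as a list (1 lower of 25, median -0.03). The exception was zmm17, a B-sister MADS-box gene known from ovules, at -2.25. It had 13.5 FPKM (4.88 to 41.7) in atypical lines, against 66.3 FPKM (35.6 to 157.04) in typical lines.

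Of 14 histone genes, 8 were at least 2-fold lower and none higher (median -1.21), beside 13.7% lower of all compared genes. Their mean level lay below every typical line in 9 of 12 atypical lines, and stood at 0.19 in the 0.493 line, -0.21 in CIMBL1 and -0.26 in CML116. H3C2 had 13.7 FPKM (2.15 to 178.03) in atypical lines, against 142.1 FPKM (0.0549 to 405) in typical lines. Linker and core histone genes both took part, with hon110 at -2.19. The 3 identifiers that share the name H4C13 differed by -2.84, -2.36 and -0.39. Reads of such near-identical copies may be split or lost, since unique alignments alone were counted. Histone transcripts in plants are polyadenylated, so libraries from polyA RNA hold them. Over the same lines, none of 8 DNA replication genes was 2-fold apart (median 0.09), 1 of 10 cyclins was lower (cycD1, -1.84; list median 0.12), and 1 of 12 kinesins was lower (KIN5, -1.31; list median 0.08). These counts are near the share over all genes. Cell number regulators, a family known in maize for limiting cell number, had 4 of 9 lower (median -0.90), led by CNR09 at -3.16. Of 29 ribosomal protein genes none was 2-fold apart (median 0.24).

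Other named genes with large shortfalls were hsp3 (-3.93), mtl2 (-3.84), piip2 (-3.67), znf (-3.53), LOB15 (-3.53), thi2 (-3.46) and Cel3 (-3.22). The thiazole synthase gene thi2, of thiamine synthesis, had 3.98 FPKM (0.883 to 31.6) in atypical lines, against 66.2 FPKM (15.5 to 913) in typical lines. All 12 atypical lines were below its typical median. Cel3, named for a cellulase, was below every typical line in 11 of 12 atypical lines, the exception being 1 line above the typical median.

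Genes at least 2-fold higher made up 0.566% of those compared. Among named genes the largest difference was 1.95 in wip1, with 8 of 12 atypical lines above the typical median, and its values per line are given further on. Among named genes with at least 90% of atypical lines above the typical median, the largest was in PP2C28, a protein phosphatase 2C, with 4.39 FPKM (2.58 to 49.2) in atypical lines, against 2.01 FPKM (0.708 to 13.4) in typical lines and a difference of 1.40. DAN599 (49.2 FPKM), GY462 (40.3 FPKM) and the 0.493 line (36.1 FPKM) stood above the other 9 atypical lines, which had at most 4.81 FPKM. VTC2, of ascorbate synthesis, differed by 1.23 and the gene named TPS4 by 1.22. The sulfite reductase gene sir (0.98) and the heat shock factor gene Hsf12 (0.96) stayed under 2-fold. For TPS4 and sir, 12 of 12 atypical lines lay above the typical median. The largest difference without a name was GRMZM5G897480 at 2.14, with medians of 29.9 FPKM in atypical lines and 2.29 FPKM in typical lines.

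Genes of sugar use divided. The sucrose synthase gene sh1 of the endosperm had 95.7 FPKM (33.5 to 258.1) in atypical lines, against 43 FPKM (12.9 to 105.5) in typical lines, a difference of 1.06 with 11 of 12 atypical lines above the typical median. The cell wall invertase gene mn1, which acts at the base of the endosperm where sucrose enters, went the opposite way: 16.9 FPKM (1.97 to 63.4) in atypical lines, against 55 FPKM (10.1 to 135.8) in typical lines, a difference of -1.84. The list of 9 endosperm sugar and starch genes was level (median -0.03). The 12 glycolysis genes were all on the higher side (median 0.38, beside 0.01 over all compared genes). At least 2-fold higher were 3 of them, beside 0.566% of all compared genes. These were gpi at 1.21, named for glucose phosphate isomerase, and gpc3 at 1.08 and gpc4 at 1.06, named for cytosolic glyceraldehyde-phosphate dehydrogenase. The mean level of the glycolysis list was above every typical line in 5 of 12 atypical lines. It was below 0 in GY386 (-0.47), 835B (-0.23) and GEMS55 (-0.09). Of the 6 low-oxygen genes none reached 2-fold (median 0.53). The alcohol dehydrogenase gene adh1 had 991 FPKM (263.7 to 2274) in atypical lines, against 390 FPKM (160.1 to 1011) in typical lines. Several atypical lines, such as CIMBL127 (1828 FPKM) and CML493 (1231 FPKM), lay above every typical line. Others, such as 835B (263.7 FPKM) and CIMBL1 (275.1 FPKM), lay below the typical median.

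The atypical lines were not 1 uniform group. Over the genes lower in atypical lines, the mean of log2(FPKM + 1) minus the typical median lay between -2.41 and -2.04 in 9 lines, and at -1.02 in DAN599, -0.72 in CML116 and -0.19 in the 0.493 line. This division into 9 and 3 lines was made after these values were seen and is a description. Correlations of the lines' differences from the typical median, taken across the compared genes, lay between 0.535 and 0.771 (median 0.677) for the 36 pairs within the 9 lines. They were 0.292 to 0.479 for the 3 pairs within the others and -0.125 to 0.551 (median 0.206) for the 27 pairs across. All of these pairs share the same typical median, and genes are not independent replicates. The level of the lower genes made the division, and those genes are among the ones correlated. The higher correlations within the 9 lines are therefore partly built in.

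**Figure D2:**
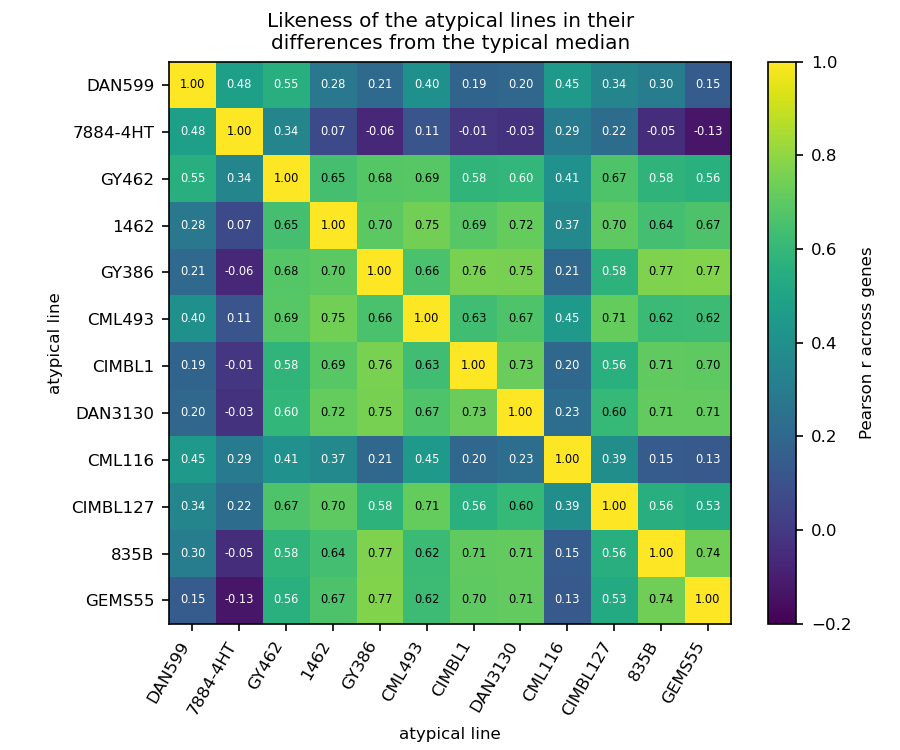
Each cell gives Pearson's r, across the compared genes, between the differences of 2 atypical lines from the typical median; lines are ordered by r with the panel, so the 0.493 line is the second from the low end. The 9 lines other than DAN599, the 0.493 line and CML116 had correlations of 0.535 or more with each other, and the 0.493 line with GEMS55 was lowest at -0.125. The 9 lines were set apart by their low level of genes that are among those correlated, so their likeness is partly built in.

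DAN599, the 0.493 line and CML116 were left out next, an alternative chosen after the values were seen. Their higher level of the lower genes set this choice, which by itself favours genes without overlap. Every remaining line then lay below every typical line in 3.89% of the compared genes (817 genes), against 0.0523% (11 genes) with all 12. Genes at least 2-fold higher made up 0.252%, against 0.566%. Leaving out the 0.493 line alone gave 55 genes and CML116 alone 41 genes without overlap. Leaving out the 0.493 line, GY462 or DAN599 in turn lowered the share of higher genes to 0.348%, 0.352% and 0.376%, and leaving out GEMS55 raised it to 0.8502%.

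Named genes that set the 3 lines apart from the 9 were chosen after their values were seen. The largest such difference was in wip1. This gene, which encodes a wound-induced proteinase inhibitor, had 2974 FPKM in DAN599, 1004 FPKM in the 0.493 line and 520 FPKM in CML116, against 0 to 308.1 FPKM in the 9 lines and a typical median of 10.6 FPKM. In DAN599 it was the gene with the largest excess over the panel mean. High wip1 was not confined to atypical lines, since 8 of 240 intermediate lines exceeded 1000 FPKM. chiB had 86.6, 115.1 and 35.7 FPKM in DAN599, the 0.493 line and CML116, against at most 10.2 FPKM in the 9 lines and a typical median of 63.2 FPKM. NAC20, gst2 and CNR7 were likewise higher in each of the 3 lines than in each of the 9. Their typical medians were 14.2, 14.9 and 22.9 FPKM. Among the 9, GY462 had 17.5 FPKM of gst2, above its typical median. Among the 3, CML116 had 22.4 FPKM of CNR7, just below its typical median. For NAC20 the lowest of the 3 lines had 38.5 FPKM, against at most 8.28 FPKM in the 9 lines. In the opposite direction wee1, a kinase gene that restrains entry into mitosis, had 2.65, 8.39 and 3.65 FPKM in DAN599, the 0.493 line and CML116. It had 8.51 to 27 FPKM in the 9 lines, and a typical median of 11.2 FPKM. Over all compared genes, 2103 (10.0%) had each of the 3 lines above each of the 9, and 524 (2.49%) had each of them below. Of the 2103 genes, 1251 were among the 2-fold lower genes. The level of those genes made the division, so these counts follow from it in part.

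**Figure D3:**
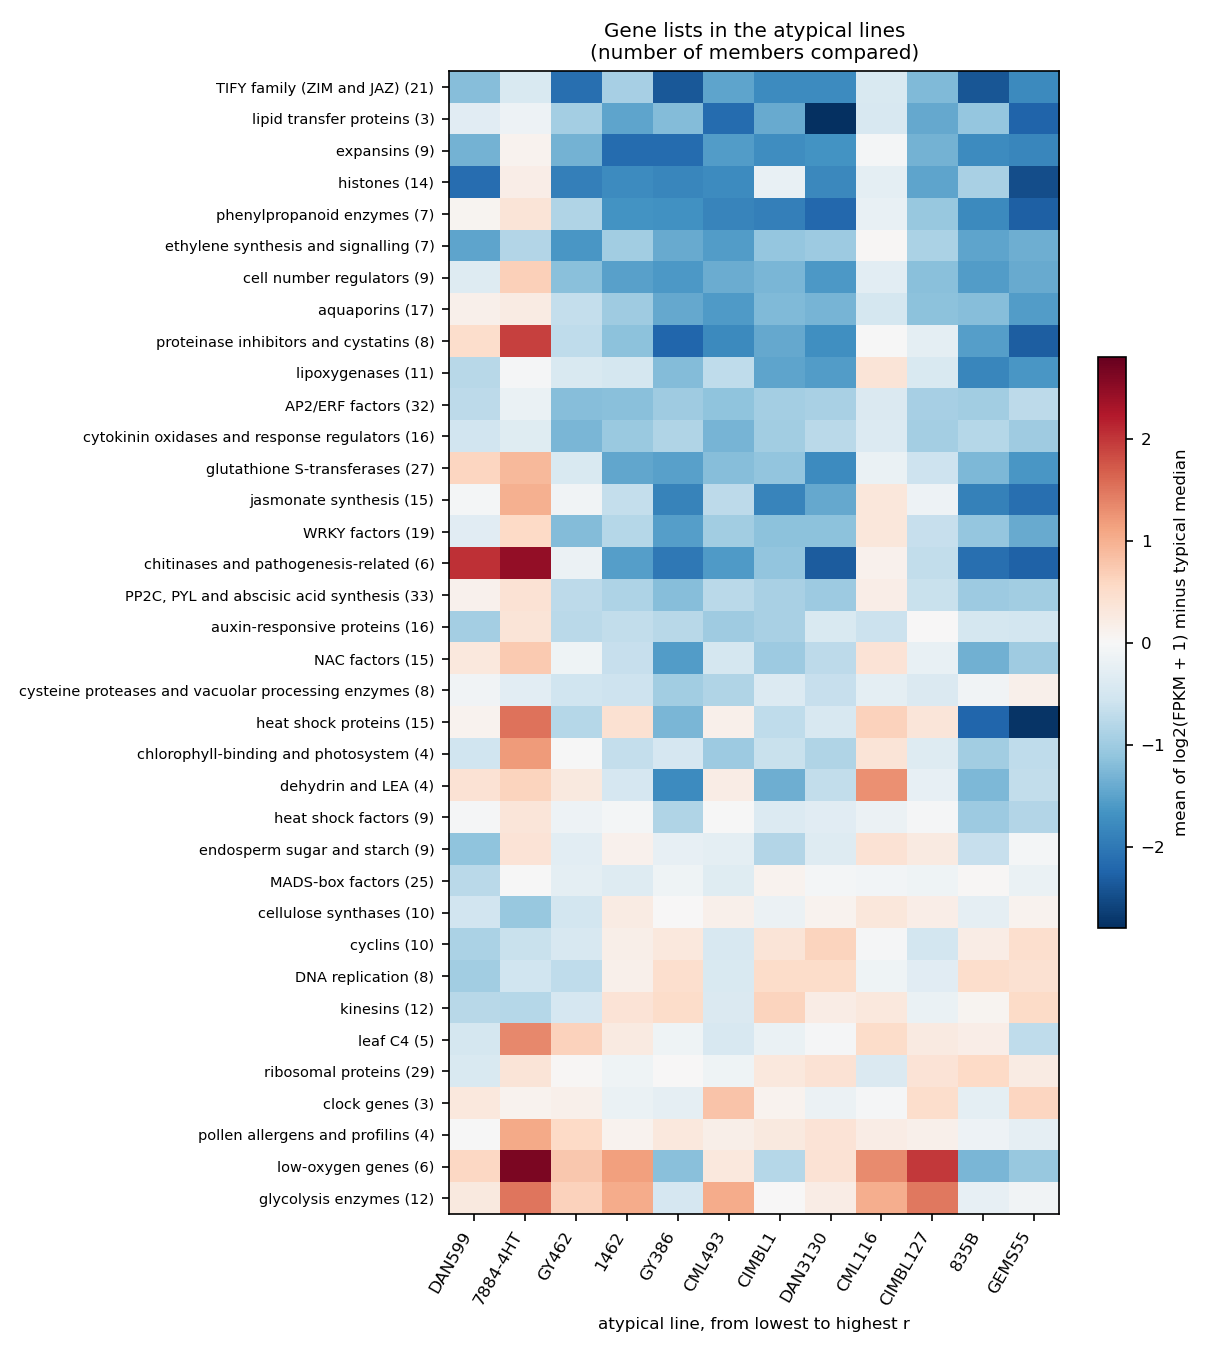
Rows are gene lists with at least 3 compared members, columns the 12 atypical lines in order of r (the 0.493 line is the second), and colour the mean over a list of log2(FPKM + 1) minus the typical median (blue lower, red higher). TIFY genes were below 0 in every atypical line, whereas chitinases and pathogenesis-related genes stood at 2.05 in DAN599 and 2.47 in the 0.493 line and as low as -2.32 in DAN3130.

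Gene lists also varied among the atypical lines. The TIFY list had a mean level between -2.40 (835B) and -0.43 (CML116 and the 0.493 line), against -0.9996 to 0.989 in typical lines, and 9 of 12 atypical lines lay below every typical line. The expansin list was below every typical line in 10 of 12 atypical lines, and the 0.493 line (0.10) and CML116 (-0.06) were within the typical range. The heat shock protein list stood at 1.52 in the 0.493 line, against -2.74 in GEMS55 and -2.23 in 835B. The small heat shock protein gene hsp22 had 547 FPKM in the 0.493 line and 1.39 FPKM in GEMS55, with a typical median of 130.9 FPKM.

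The low-oxygen list was highest in the 0.493 line (2.64), CIMBL127 (1.98) and CML116 (1.32) and lowest in 835B (-1.27), GY386 (-1.16) and GEMS55 (-1.06). The glycolysis list had some of the same lines at its ends, with 1.4998 in the 0.493 line, 1.48 in CIMBL127 and -0.47 in GY386. The pyruvate decarboxylase gene pdc3 had 2726 FPKM in CIMBL127 and 95.7 FPKM in CIMBL1. The DNA replication list, level over the 12 lines, stood at -0.98 in DAN599, -0.72 in GY462 and -0.55 in the 0.493 line but at 0.52 in CIMBL1, 0.51 in DAN3130 and 0.49 in 835B. The median of a list over the 12 lines thus covers lines on both sides of the typical median.

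The gene furthest above the panel mean differed between most atypical lines. Besides wip1 in DAN599, it was ald1, the aldolase gene, in 1462 (1948 FPKM) and CIMBL127 (3807 FPKM), with a panel mean of 955 FPKM. It was glu1, a beta-glucosidase gene, in GY386 (1519 FPKM), trh2 in CML493 (3351 FPKM) and grp1 in GEMS55 (3389 FPKM). In the other lines it was a gene without a descriptive name, such as AC149829.2_FG002 in the 0.493 line (5643 FPKM).

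Lines between the thresholds filled the range between the groups. The genes scored were chosen by these same groups and r orders the lines, so the end classes were bound to differ. The mean level of the lower genes had a median of -2.13 in the 12 lines with r below 0.6, -0.76 in 19 lines with r from 0.6 to below 0.7, -0.31 in 79 lines from 0.7 to below 0.8, -0.17 in the remaining intermediate lines from 0.8 to below 0.87 and -0.04 in the 66 typical lines. The levels of the higher genes had medians of 1.25, 1.07, 0.30, 0.22 and 0.13 over the same classes. Among the 240 intermediate lines, 3 had a mean level of the lower genes below -1.5, and no typical line did, which the choice of genes favours. These were BY4839 (-2.17), Q319-BC6 (-1.81) and GEMS65 (-1.75), named after their values were seen. GRMZM2G121308 had medians of 201.3, 691, 1622, 4101 and 5400.1 FPKM over the 5 classes. TIFY10 had medians of 1.68, 84.7, 148.1, 165.9 and 218.8 FPKM, with its largest single step between the lowest class and the next. It was named for its low values in the lowest class, which favours a step there. sh1 had medians of 95.7, 62, 52.7, 43.2 and 43 FPKM.

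**Figure D4:**
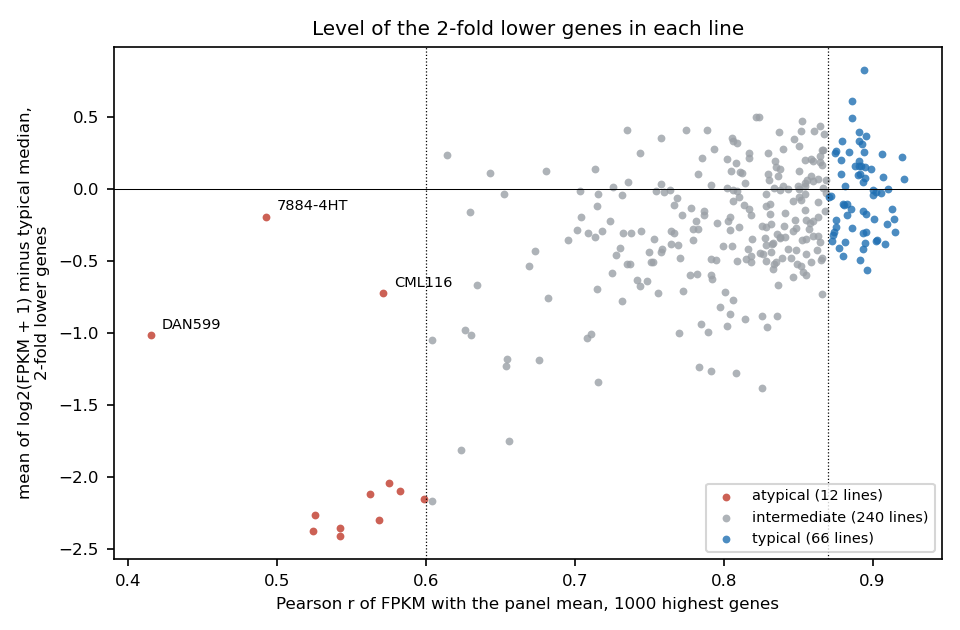
Each point is 1 line; the x axis is r with the panel mean over the 1000 highest genes and the y axis the mean, over the genes 2-fold lower in atypical lines, of log2(FPKM + 1) minus the typical median; dotted lines mark 0.6 and 0.87. In the plot 9 of the atypical lines lay at -2.04 or below, and the 0.493 line, CML116 and DAN599 lay higher. The 66 typical lines lay between -0.57 and 0.82. Since the genes were chosen by these groups, the separation on the y axis is partly built in.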

How the data were processed

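RNA-seq of 5-DAP kernels was made by the authors from polyA RNA with paired 125-base reads, 1 library for each of 318 lines. The paper describes fewer 5-DAP lines than these 318, so its methods are taken here to hold for all of them. Cleaned reads were mapped to B73 RefGen_v3 (AGPv3) with TopHat2 as unstranded libraries, unique alignments were kept, and reads on annotated genes were counted with GenomicFeatures and GenomicAlignments; Picard is also named, and versions are not given in the sources used here. The deposited counts are whole numbers of reads per gene without normalization, for 39625 gene identifiers. The second deposited table holds FPKM, which the authors derived from those counts with DESeq2. This was checked: counts divided by 1 factor per line and 1 per gene gave the FPKM back. Without strand, overlapping and antisense genes cannot be told apart, and near-identical copies are uncertain.

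Lines were grouped by r as described. The rule used these same values, so per-gene differences of mean log2(FPKM + 1) (pseudocount 1, median above 1 FPKM in either group) were given without tests, at a threshold of 2-fold. Total counts were tested by permutation of the difference in medians and name series by Fisher's exact test, both two-sided. No 2 lines were counted as 1 sample: the smallest mean squared standardized count difference of a pair, taken where the 2 lines together had 20 or more counts, was 59.4 among atypical and 7.54 among typical lines, against about 1 for sampling noise alone. Computations used Python 3.11.15, numpy 2.4.6, scipy 1.17.1, pandas 2.3.3, matplotlib 3.10.9, R 4.3.3 and edgeR 4.0.16 (TMM library sizes, as an alternative), and the script was tested on simulated data. The precision of low values is limited by counting error and cannot be told from line differences with 1 library a line.

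Gene names were looked up in RefSeq (Zm-B73-REFERENCE-NAM-5.0). The files use another build, so no coordinates are given. It matched 19060 identifiers, 2788 with a gene name (2052 of the compared genes). It holds no product descriptions, so lists planned by product were matched on names. Named genes are the 12 highest and 12 lowest with a name and the 5 highest and 5 lowest without one, where at least 90% of atypical lines lay beyond the typical median; the 10 with the highest mean; the largest excess and shortfall of each atypical line; and up to 4 members of each list. Genes outside this rule (gst2 and wee1) were chosen after viewing their values. The members and lists were chosen with earlier results of these data known. Alternatives were other gene numbers, scales and thresholds, pseudocount 0.1, other low-value filters, TMM, medians, unprefixed lines only and each atypical line left out.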

Additional observations from a re-analysis of the deposited data

How the results depend on the processing

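The rule was sensitive to its genes: 20 lines had r below 0.6 over 500 genes and 5 over 2000 genes, and 7 of the 12 lines stayed among the 12 lowest with the 10 highest genes left out, when 5 lines reached 0.87. Leaving the line out of the mean kept all 12, and 9 were shared on log2 Pearson or Spearman scales. The count of lower genes stayed within 1.5 times of 2872 under every alternative run. As a share of the genes compared, 13.7% became 7.29% without the filter on median FPKM, where more genes are compared. It became 9.67% with atypical r below 0.65 and 19.3% with pseudocount 0.1. Genes 2-fold higher were 0.566% of those compared, and became 0.328% without the filter on median FPKM (over all 39625 genes), 1.498% with pseudocount 0.1, 0.851% with TMM, 1.003% by medians, 1.353% in unprefixed lines, 0.252% without DAN599, the 0.493 line and CML116, and 0.348% to 0.8502% leaving out single lines. Lower genes without overlap were 0.0523%, and became 0.0278% without that filter, 0.0349% outside the 1000 genes, 0.0333% with typical r at or above 0.85, 0.194% at or above 0.89, 0.00476% with atypical r below 0.65, 0.476% in unprefixed lines, 3.89% without those 3 lines, and 0.0523% to 0.262% leaving out single lines. Higher genes without overlap were 0%, and became 0.00949% with typical r at or above 0.89, 0.0613% in unprefixed lines, and 0% to 0.00475% leaving out single lines. Of the lists with at least 3 compared members, 5 had a median at or below -1, and the number became 10 with pseudocount 0.1, 9 by medians, 9 without the 3 lines and 3 to 6 leaving out single lines. The difference in median total counts was 1678334 to 2723484 leaving out single lines. The causes of these shifts were not tested. No difference of 2-fold or more changed its direction among the results recomputed. No paired analysis was possible because each line is 1 library and the groups share no replicate numbers.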
